A study of Mus musculus with 4 samples.

Results

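The ilium, the flat upper bone of the pelvis, was compared with the femur, the long bone of the thigh, in male C57BL/6 mice aged 35 days. The comparison used 2 of the 4 arrays of the series, 1 for each bone, and the other 2, of the maxilla and the mandible, served to place its values. No group had a genetic change or a treatment. Bones were taken from mice and total RNA of each was labelled with 1 dye and hybridised to an Agilent whole mouse genome array; the number of animals behind each RNA is not in the labels, nor is what soft tissue stayed on the bone. With 1 array per bone there are no replicates and no test was made; precision is limited by this number of arrays. Values are levels, the log2 signal of a gene minus the 75th percentile over all non-control spots on that array, and differences are ilium minus femur on that scale.

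Both bones form in cartilage that is later replaced by bone. In a young mouse, chondrocytes of the growth plates still divide, enlarge and calcify their matrix, and articular cartilage covers the hip and knee joints; the matrix is built on type II, IX and XI collagen and on the proteoglycan aggrecan. Osteoclasts resorb calcified cartilage and bone, osteoblasts lay down new bone, and the marrow between the trabeculae makes blood cells and holds adipocytes.

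Of 27588 genes with a value, 20874 were well above background in the brighter bone, 19461 of them in both bones. The median difference was -0.06 and the median absolute difference 0.19, against a median error of a difference of 0.204 by the scanner program's own estimate. Differences from the 5th to the 95th percentile ran from -0.65 to 0.68, and 96.5% of the genes lay within 2-fold. These figures take 1413 genes dim in 1 bone at a bound (given below), so such genes may lie further apart. Between the maxilla and the mandible the median absolute difference of the genes measured in both the ilium and the femur was 0.43. No background filter and no bound was applied to the jaw bones, so the 0.43 and the 0.19 are not on equal terms. Probes printed in 3 or more spots had a median SD of the difference between spots of 0.0679 (197 probes, 95th percentile 0.296). Both errors are technical, within an array, and say nothing of the spread between animals. The ilium array had 72.8% and the femur array 75.5% of its 43379 spots well above background and 0 saturated spots; slide position and bone cannot be told apart.

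**Figure D1:**
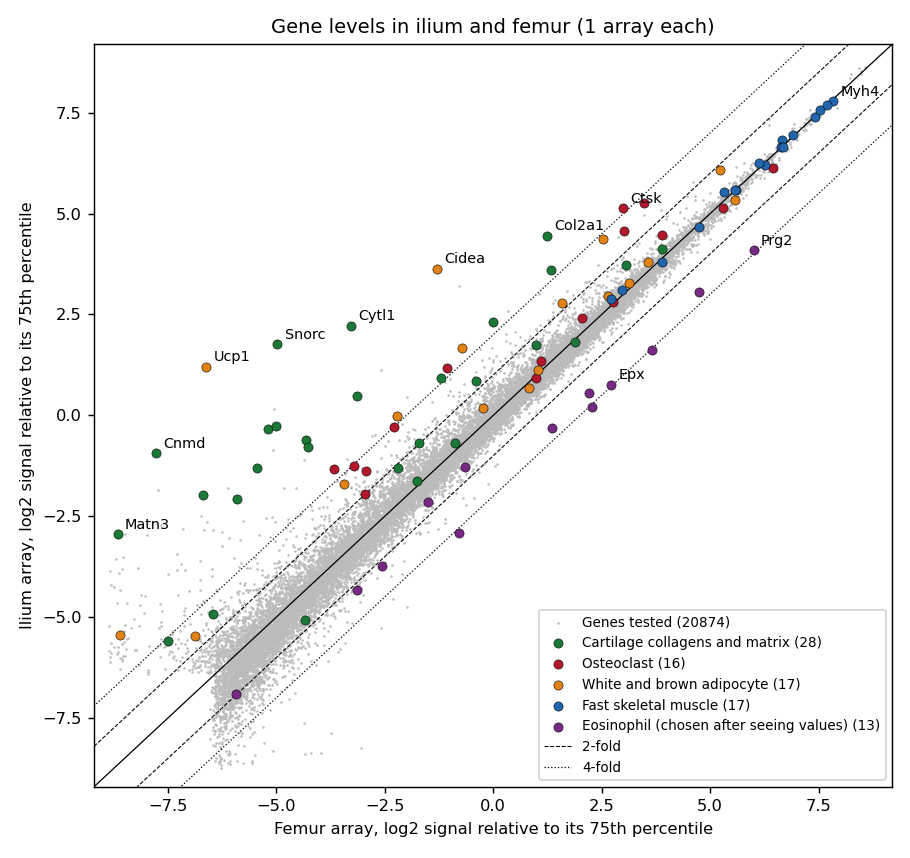
Level of each of 20874 genes on the femur array (x) and the ilium array (y), log2 signal relative to the 75th percentile; coloured points are genes of named lists, at their measured signal also where dim in the femur, and dashed and dotted lines mark 2-fold and 4-fold. Most cartilage genes lie above the diagonal, many of them far above it, such as Snorc at 1.76 in ilium and -4.97 in femur. Col11a1, Scrg1 and Lect2 lie near or below it. Fast muscle genes lie on the diagonal, and eosinophil genes lie below it.

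In the ilium 456 genes (2.18% of those tested) were at least 2-fold higher and 91 (0.436%) at least 4-fold higher. In the femur 276 genes (1.32%) were at least 2-fold higher and 17 (0.0814%) at least 4-fold higher. Each list count below is to be read beside these shares over all genes tested. A gene not well above background in the dimmer bone was counted by a bound, the level in the brighter bone minus the lowest level well above background on the other array (-6.46 in ilium, -6.53 in femur) or minus the gene's own level if that was higher. The ilium thus held 62.3% of the genes at least 2-fold apart, 74.0% after quantile normalization, 75.8% after a loess on the mean level and 88.7% with normexp, a model-based background correction, but 37.5% without a filter on background. Just past 4-fold stood Slitrk6 (2.02) and Abitram (2.03) in the ilium and Ear1 (-2.04) and Ear6 (-2.07) in the femur. Just short of it stood Dcstamp and Fndc3c1 (1.99 each) and Epx (-1.95) and Prg2 (-1.91).

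Cartilage genes led the differences. Of 8 cartilage collagens, 6 were at least 2-fold and 5 at least 4-fold higher in ilium and 0 in femur, with a median difference of 3.41. Col2a1, the main fibrillar collagen of cartilage (probe on chromosome 15, 97804088 to 97804147, mm8), stood at 4.45 in ilium, 1.24 in femur, 2.26 in maxilla and 2.58 in mandible. Its ilium level was the highest of the 4, 9.27-fold above the femur (difference 3.21 ± 0.20, scanner error), and its other probe gave 3.31. The 3 chains of collagen IX, which coats the type II fibrils, differed most among the collagens measured in both bones. Col9a1 (chromosome 1, 24206120 to 24206179) stood at -0.33 in ilium, -5.19 in femur, -4.0 in maxilla and -2.16 in mandible, a difference of 4.86 ± 0.24 or 29.0-fold. Col9a2 (0.49 in ilium and -3.13 in femur) and Col9a3 (-0.61 and -4.32) were 12.2- and 13.1-fold higher in the ilium, and in the mandible they stood above the ilium, at 2.59 and 0.81. Col11a1 and Col11a2, chains of the type XI collagen at the fibril core, differed by only 0.22 and 0.67, and Col27a1 by 1.02.

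Of 20 cartilage matrix proteins other than collagens, 13 were at least 2-fold and 11 at least 4-fold higher in ilium and 0 in femur (median 2.21). Snorc, a small membrane proteoglycan of chondrocytes (chromosome 1, 89306558 to 89306617), stood at 1.76 in ilium, -4.97 in femur, -1.47 in maxilla and -4.01 in mandible. This 106-fold difference (6.73 ± 0.23) was the largest among genes well above background in both bones. Cytl1, a secreted protein of cartilage (chromosome 5, 38027799 to 38027858), stood at 2.22, -3.27, 1.16 and -2.54 in the same order, 44.8-fold higher in the ilium (5.49 ± 0.21). Ucma, a Gla protein of the upper growth plate, stood at -0.27 in ilium, -5.01 in femur, -0.45 in maxilla and -4.68 in mandible, 26.8-fold apart. For both genes the ilium and maxilla were high and the femur and mandible low. Hapln1, the link protein that holds aggrecan on hyaluronan, was 17.8-fold higher (-1.30 in ilium, -5.45 in femur, -3.59 in maxilla, -1.75 in mandible). Acan, aggrecan itself, was 4.41-fold higher (0.93, -1.21, -0.27 and -0.39). Cnmd, Matn3 and Clec3a passed the background limit in the ilium sample alone of the pair. Cnmd, the anti-angiogenic chondromodulin, stood at -0.94 in ilium, -7.78 in femur, -2.76 in maxilla and -2.0 in mandible, at least 48.2-fold apart. Matn3, a matrilin of the growth plate, stood at -2.94 in ilium and was not well above background in femur (-8.66), maxilla (-8.14) or mandible (-8.54), so it was at least 12.0-fold higher in ilium than in femur. Clec3a was at least 2.88-fold higher. The small leucine-rich proteins Epyc (14.1-fold) and Chad (5.03-fold), the secreted Mia (11.1-fold) and the matrix proteins Comp (4.83-fold) and Cilp (2.40-fold) were also higher in the ilium, while Scrg1 (-0.08) and Lect2 (-0.74) stood at or above the ilium level in the femur.

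Genes of hypertrophic and calcifying cartilage split. Col10a1, the collagen of hypertrophic chondrocytes (chromosome 10, 34085172 to 34085231), stood at -1.96 in ilium and -4.16 in maxilla and was not well above background in femur (-6.68) or mandible (-6.99), at least 23.7-fold higher in ilium than femur. Panx3, a channel protein of hypertrophic chondrocytes and osteoblasts, was 16.5-fold higher (-1.38 and -5.42). Mmp13, the collagenase of the growth plate border, was 2.89-fold higher (4.41 and 2.88). The other 7 of the 10 measured genes were within 2-fold, from Phospho1 at 0.16 to Enpp1 at 0.91, and all 10 differences were above 0 (median 0.77). In bulk tissue, fewer cells of a type and less RNA per cell cannot be told apart.

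Joint surface genes gave 3 of 12 at least 2-fold higher in ilium and 0 in femur (median 0.54). Prg4, the lubricin of the cartilage surface and synovium (chromosome 1, 152212251 to 152212991), stood at 3.20 in ilium, -0.79 in femur, -2.83 in maxilla and -0.07 in mandible, a 15.9-fold difference (3.99 ± 0.20). Htra4, a secreted protease, was 6.71-fold higher (-1.80 and -4.55), and the third gene was Cilp. Gdf5 and Erg, early factors of joint formation, differed by less than 0.01 and stood at -3.22 and 1.03 in both bones.

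Upstream of the matrix the differences were smaller. Of 13 chondrocyte regulators, 3 were at least 2-fold higher in ilium and 0 in femur (median 0.37). Sox9, the master regulator of chondrocytes, stood at -1.38 in ilium, -2.68 in femur, 1.62 in maxilla and 2.08 in mandible, a difference of 1.31, but its 3 probes gave -0.01 to 1.44. Its partners Sox5 and Sox6 differed by 0.39 and -0.41. Foxa2, a factor of hypertrophic chondrocytes and of airway and gut epithelium, stood at -2.97 in ilium and -2.53 in maxilla and was not well above background in femur (-7.98) or mandible (-8.0), at least 11.8-fold higher in ilium than femur. Of 15 growth plate signals, Ihh, Hhip and Pth1r were at least 2-fold higher in ilium and 0 in femur (median 0.42). Ihh, the hedgehog ligand of prehypertrophic chondrocytes, stood at -2.62 in ilium, -5.77 in femur, -5.63 in maxilla and -6.01 in mandible, 8.88-fold apart, although its other probe gave a difference of 0.52. Hhip, a hedgehog target that binds the ligand, was at least 3.63-fold higher, and the target Gli1 differed by 0.77. Pth1r, the receptor for parathyroid hormone and its related protein, was 2.29-fold higher. Enzymes that sulfate and extend cartilage proteoglycans gave 0 of 7 genes 2-fold apart in either direction (median 0.25), with Papss2 at 0.82 the highest.

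Since the cartilage genes differed together, the 250 bases before the start of 4 of them, picked because they hold a match, are shown (RefSeq, GRCm38.p6, each 5′ to 3′ in the direction of the gene). Capitals mark the letters searched on both strands: ACAAAG and ACAAT, cores read by SOX factors, and TGTGGT, read by RUNX factors, whose reverse complement is ACCACA. The windows lie at chr10:34389731-34389980 (plus strand) for Col10a1, chr13:89540386-89540635 (plus strand) for Hapln1, chr2:4975872-4976121 (plus strand) for Ucma and chr1:74951673-74951922 (minus strand) for Ihh.
Col10a1: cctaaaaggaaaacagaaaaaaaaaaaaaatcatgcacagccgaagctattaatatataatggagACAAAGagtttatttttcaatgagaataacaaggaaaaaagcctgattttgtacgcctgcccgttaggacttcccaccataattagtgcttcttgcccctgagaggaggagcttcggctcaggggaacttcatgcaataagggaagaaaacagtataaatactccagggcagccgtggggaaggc
Hapln1: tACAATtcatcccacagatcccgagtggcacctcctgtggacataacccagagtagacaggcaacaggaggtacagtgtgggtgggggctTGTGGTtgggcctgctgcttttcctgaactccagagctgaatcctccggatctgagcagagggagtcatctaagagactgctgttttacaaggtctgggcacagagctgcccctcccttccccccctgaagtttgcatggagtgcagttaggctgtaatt
Ucma: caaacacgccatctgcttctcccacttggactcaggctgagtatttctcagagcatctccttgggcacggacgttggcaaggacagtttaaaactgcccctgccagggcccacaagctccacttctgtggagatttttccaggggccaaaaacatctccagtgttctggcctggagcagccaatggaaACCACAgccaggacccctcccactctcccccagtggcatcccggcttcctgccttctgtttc
Ihh: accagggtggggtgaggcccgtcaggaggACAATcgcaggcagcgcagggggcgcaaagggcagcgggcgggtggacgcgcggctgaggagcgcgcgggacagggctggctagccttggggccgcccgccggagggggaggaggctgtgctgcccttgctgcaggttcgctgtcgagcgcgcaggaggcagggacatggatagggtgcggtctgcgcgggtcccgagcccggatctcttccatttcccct
Of 29 cartilage genes at least 2-fold higher in the ilium, 20 were matched to a promoter. ACAAAG was in 2 of the 20 (10.0%, Pth1r and Col10a1) against 16.5% of all 27025 promoters, and ACAAT in 3 (15.0%, Ihh, Epyc and Hapln1) against 28.3%. TGTGGT was in 4 (Ucma, Mmp13, Cilp and Hapln1) against 14.2%, and TTTATG, read by HOX factors, in 0 against 11.1%. The searched letters do not overlap one another in the windows shown. The windows of Matn3, Cnmd, Cytl1, Col9a1 and Foxa2 held 0 matches. A match describes these letters in this window and is no measure of binding.

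Osteoclast genes were higher in the ilium in part. Of 16 tested, 9 were at least 2-fold and 3 at least 4-fold higher there and 0 in the femur, with a median of 1.28, or 1.02 with normexp and 1.03 with the median over probes. Ctsk, the cathepsin that digests bone collagen (chromosome 3, 95592129 to 95592373), stood at 5.13 in ilium, 3.00 in femur, 4.08 in maxilla and 4.30 in mandible, 4.39-fold higher in ilium than femur (2.13 ± 0.20). Acp5, the tartrate-resistant phosphatase, stood at 5.25, 3.47, 3.55 and 4.00, 3.42-fold higher. For both the ilium was the highest and the femur the lowest of the 4 bones. Genes of osteoclast fusion differed as much: Dcstamp by 1.99, Ocstamp by 2.24 (its other probe 0.38) and Atp6v0d2, a proton pump subunit, by 2.34. Atp6v0d2 stood at -1.32 in ilium, -3.66 in femur, -2.28 in maxilla and -2.29 in mandible. The receptors Calcr (1.96), Tnfrsf11a (1.56, other probe 0.57) and Oscar (1.00) and the creatine kinase Ckb (1.55) made up the rest of the 9. Of the 16 differences, 13 were above 0 and 3 below. The 3 were those of Car2 (6.13 in ilium and 6.45 in femur), Itgb3 (5.13 and 5.29) and Nfatc1 (0.92 and 0.97).

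Bone-forming genes leaned to the ilium by less. Of 19 osteoblast genes, 7 were at least 2-fold higher in the ilium, 0 in the femur and 0 at least 4-fold, and all 19 differences were above 0 (median 0.83). Bglap (osteocalcin) at 7.55 and 7.30 and Col1a1 at 6.71 and 6.61 in ilium and femur were close, and both defining bone genes were well above background on each array. Ifitm5, a membrane protein of mineralising osteoblasts, differed by 1.37, Smpd3 by 1.31, Dlx3 by 1.21 and Sp7, the osteoblast master factor osterix, by 1.06. Of 12 osteocyte genes, 4 were at least 2-fold higher in ilium and 0 in femur (median 0.66). They were Irx5 (1.48), Dkk1 (1.41), Fam20c, a kinase of secreted matrix proteins (1.33), and Dmp1, a matrix protein of osteocytes (1.03). Sost, the Wnt inhibitor sclerostin, differed by 0.37 and Fgf23, the phosphate hormone, by -0.83, at -5.05 in ilium and -4.23 in femur.

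Tendon and fibroblast genes followed. All 15 tendon and ligament genes had a difference above 0 (median 0.60), with 2 at least 2-fold, Comp and the tenascin gene Tnc (1.18), and 0 in the femur. Of 20 fibroblast and periosteum genes, 16 were above 0 (median 0.54), Dpt (1.56) and Clec3b (1.07) by at least 2-fold. Among secreted signals, 5 of 17 Wnt ligands and antagonists were at least 2-fold higher in ilium and 0 in femur, all 5 of them antagonists of the pathway. They were Notum (1.96), Sfrp2 (1.93), Dkk1, Wif1 (1.39) and Frzb (1.35). Sfrp2 stood at 0.82 in ilium, -1.11 in femur, 3.82 in maxilla and 4.96 in mandible. Of 22 BMP and TGF-beta genes, Bmp3 (1.12) and the BMP inhibitor Chrdl2 (1.02) passed 2-fold, and of 12 IGF genes the binding protein Igfbp2 (1.34). Of 13 metalloproteinases and inhibitors 4 passed it (Mmp3 at 1.83, Mmp13, Mmp16 and Timp1 at 1.16), with 0 in the femur in these 3 lists. Over all genes tested, the shares at least 2-fold higher were 2.18% in ilium and 1.32% in femur.

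**Figure D2:**
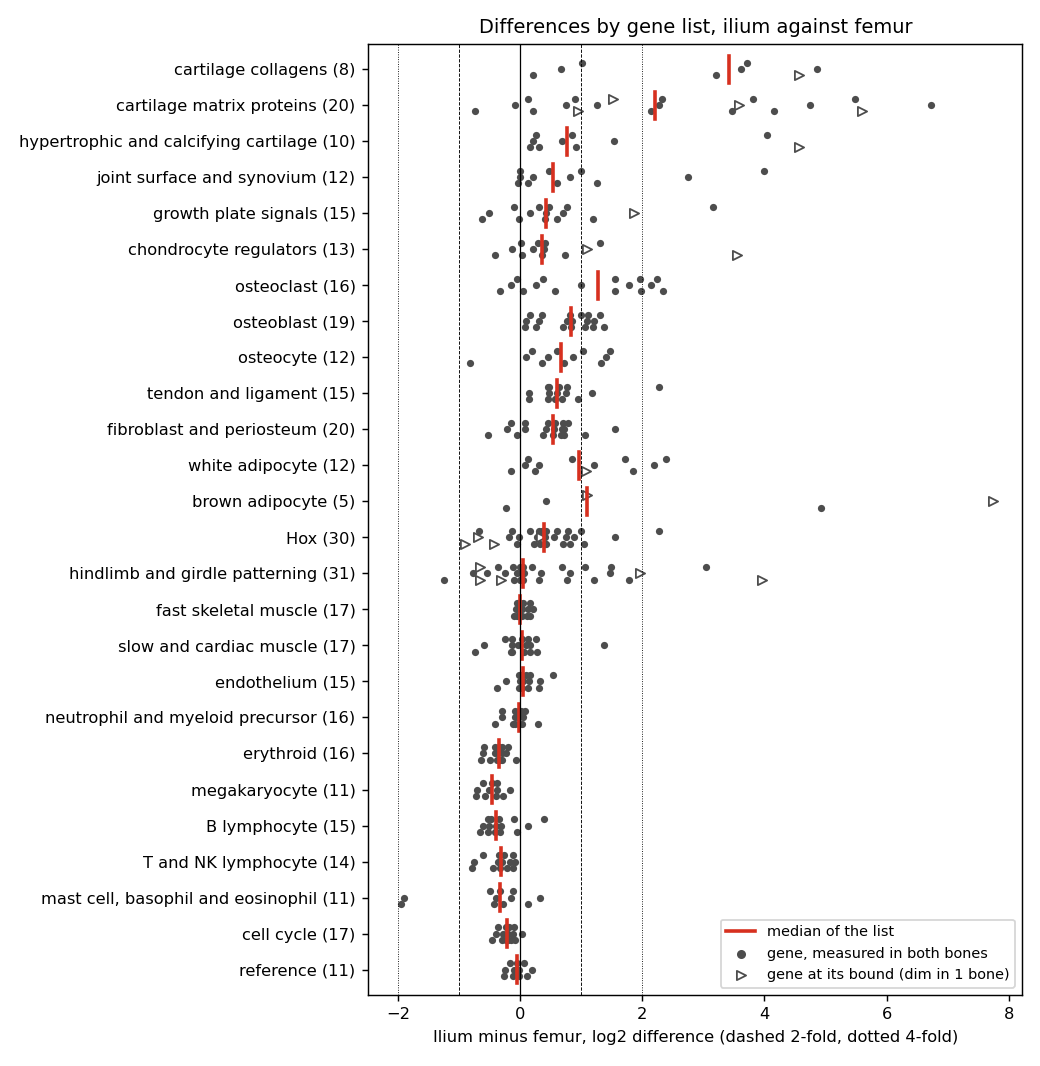
Ilium minus femur difference (x, log2) of each tested gene of 26 lists (rows, number of genes in brackets); dots are genes measured in both bones, triangles genes at their bound and red bars list medians. Cartilage collagens (median 3.41), cartilage matrix proteins (2.21) and osteoclast genes (1.28) lie to the right, and megakaryocyte (-0.46), B lymphocyte (-0.39) and erythroid genes (-0.35) slightly to the left.

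Several adipocyte genes were higher in the ilium, among them Ucp1 and Cidea of heat-producing fat. Ucp1, the uncoupling protein of brown adipocytes (chromosome 8, 86187994 to 86188053), stood at 1.21 in ilium, -4.96 in maxilla and -0.45 in mandible and was not well above background in femur (-6.62). It was at least 213-fold higher in ilium than femur, the largest bound of all genes with a symbol. Cidea, a lipid droplet protein of brown adipocytes, stood at 3.63 in ilium, -1.29 in femur, 3.30 in maxilla and 1.41 in mandible, 30.4-fold higher in ilium than femur. Otop1, a proton channel of brown fat and taste cells, was at least 2.14-fold higher. The other brown adipocyte genes did not differ so: Dio2 by 0.43 and Cox7a1, also of muscle, by -0.23, and Elovl3 was not well above background in either bone. With 5 tested genes, 3 of them at least 2-fold higher in ilium and 0 in femur, the list's median of 1.10 moved between 0.43 and 2.68 over the alternative settings. Of 12 white adipocyte genes 6 were at least 2-fold higher in ilium and 0 in femur (median 0.96, or 0.60 with normexp). Cidec, a droplet fusion protein, was 5.22-fold higher (1.67 in ilium, -0.71 in femur, -1.03 in maxilla, -0.33 in mandible), and Plin1, the droplet coat perilipin, 4.59-fold (-0.03, -2.22, -2.56 and -1.92). Cfd (adipsin) differed by 1.85, Retn (resistin) by 1.72 and Scd1 by 1.20, and Lep, not well above background in femur, was at least 2.10-fold higher. Adipoq (adiponectin), at 2.95 and 2.64, and Pparg, the regulator of fat cell formation, at 1.12 and 1.03, were within 2-fold. A further list of 15 genes, headed lipid storage and synthesis, was chosen after their values were seen. In it Gys2 (3.06), Ffar4 (2.56), Thrsp (1.94) and Fasn (1.49) were at least 2-fold higher in ilium and 0 in femur. Gys2 is a glycogen synthase and Ffar4 a fatty acid receptor, so the heading does not describe them.

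Hox genes, which set position along the trunk and limb, leaned to the ilium. Of 38 with a value, 8 were not well above background in either bone (among them Hoxa13 and Hoxd13 of the limb end), and of the 30 tested 4 were at least 2-fold higher in ilium (2.18% of all genes were) and 0 in femur, and 22 differences were above 0 (median 0.38). Hoxb2 stood at -0.52 in ilium and -2.79 in femur, 4.82-fold apart, was not well above background in maxilla (-8.02) and stood at -5.92 in mandible; its other probe gave 1.39. Hoxd9 (-3.0 and -4.54), Hoxd8 (-2.91 and -3.95) and Hoxb7 (-1.45 and -2.45) were 2.92-, 2.06- and 2.00-fold higher in the ilium. Hoxa11, expressed in the middle limb segment of embryos, stood at -4.62 in ilium and -3.94 in femur, a difference of -0.68. Hoxc10, Hoxc6, Hoxc9 and Hoxa10 differed by 0.16 to 0.42.

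Patterning genes of the girdle and hindlimb differed in both directions. Of 31 tested, 8 were at least 2-fold higher in ilium (2.18% of all genes were) and 1 in femur (1.32% of all genes), with a median of 0.05, or 0.32 over genes at -3 or above in the brighter bone. Isl1, which marks the early hindlimb field, stood at -3.23 in ilium, -6.26 in femur, 0.64 in maxilla and 0.46 in mandible, 8.2-fold higher in ilium than femur. Alx1 stood at -2.56 in ilium, 0.30 in maxilla and 1.65 in mandible and was not well above background in femur (-8.41), at least 15.6-fold apart. Pax1, a factor of the axial skeleton and girdles, was at least 3.88-fold higher. Meis2 (1.78), Six2 (1.48), Irx5 (1.48), Prrx2 (1.06) and Alx4 (1.21, other probe -0.50) made up the 8. Lmx1b, which gives the limb its dorsal side, stood at -5.95 in ilium and -4.71 in femur, 2.36-fold higher in the femur, and Pitx1, the hindlimb factor, at -1.75 and -1.20 (difference -0.55). Emx2, needed for the shoulder blade and ilium, stood at -4.94 and -4.84.

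Both arrays carried muscle transcripts at matching levels. In 17 fast skeletal muscle genes the difference ran from -0.10 to 0.22, with a median of 0.00 and 0 genes at 2-fold; the median was -0.01 after quantile normalization. Myh4, a fast myosin heavy chain, stood at 7.79 in ilium and 7.83 in femur. Of 17 slow and cardiac muscle genes, Csrp3, a stretch-response protein of the sarcomere, was 2.60-fold higher in the ilium (3.09 and 1.71), and the other 16 were within 2-fold. Myh7, the slow myosin, stood at 5.84 and 5.69, and at -0.91 in maxilla and 0.26 in mandible.

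Blood cell genes were within 2-fold in most lists and leaned to the femur. All 16 erythroid genes (median -0.35), all 11 megakaryocyte genes (-0.46) and all 14 T and NK lymphocyte genes (-0.31) had differences below 0, and 13 of 15 B lymphocyte genes (-0.39) did too, with 0 genes of these lists at 2-fold in either direction. The globin genes, which are not in the erythroid list, did not share this sign throughout: the adult Hbb-bt differed by 0.18, Hba-a2 by 0.14 and Hba-a1 by -0.01, and the embryonic Hbb-y by -0.54 and Hbb-bh1 by -0.88 (looked up after the other values were seen). Hbb-bt stood at 8.61 in ilium, 8.43 in femur, 8.74 in maxilla and 8.35 in mandible. The summed linear signal of the erythroid list was 366, 428, 40.7 and 65.0 in the same order. Adult globin values that do not follow that large change cannot speak to the small lean of the list. The median of all genes was -0.06. Rhag, of the red cell membrane, stood at 0.66 in ilium and 1.30 in femur, Gp5, of platelets, at 1.25 and 1.96, and Cd8a at -1.78 and -0.99. Neutrophil and myeloid precursor genes were level (median -0.03 over 16), as Mpo at 7.48 and 7.4. Of 13 monocyte and macrophage genes, 11 were below 0 (median -0.31), Timd4 of resident macrophages by -0.91, while Cd68 (0.56) and Csf1r (0.48), which osteoclasts also express, were above. Cell cycle genes were below 0 in 16 of 17 (median -0.21).

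Granule genes of eosinophils were higher in the femur. Of the 11 genes of the mast cell, basophil and eosinophil list, Prg2 and Epx were at least 2-fold higher in the femur and 0 in the ilium, and the list's median was -0.33, like those of other blood cell lists. Prg2, the major basic protein (chromosome 2, 84783481 to 84783540), stood at 4.10 in ilium, 6.00 in femur, 2.57 in maxilla and 2.63 in mandible, 3.75-fold higher in femur than ilium (-1.91 ± 0.20). Epx, the eosinophil peroxidase (chromosome 11, 87680981 to 87681040), stood at 0.76, 2.72, -1.23 and -1.36, 3.87-fold higher. In both the femur was highest, the ilium next and the jaw bones lowest. The mast cell and basophil genes of the same list were close: Mcpt8 at 1.06 in ilium and 1.17 in femur, Cpa3 at 0.44 and 0.59. A list of eosinophil genes was drawn up after these values were seen, so its counts describe the choice. Of its 13 tested genes 10 were at least 2-fold and 3 at least 4-fold higher in the femur and 0 in the ilium, and the median was -1.68. They include the eosinophil ribonucleases Ear1 (1.63 and 3.67), Ear6 (0.21 and 2.27) and Rnase2a (3.07 and 4.75), members of a family of near-identical copies that probes may not keep apart. They also include Prg3 (-0.32 and 1.36), the lipoxygenase Alox15 (-2.91 and -0.79), the receptor Il5ra (-4.33 and -3.15) and Il4 (-3.72 and -2.56). Ccr3 and Siglecf, receptors of the eosinophil surface, differed by -0.62 each.

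Apart from these, the genes higher in the femur were mostly dim. Of the 276, 231 (83.7%) had a femur level below -3, with a median of -4.67; of the 456 higher in the ilium, 189 (41.4%) had an ilium level below -3, with a median of -2.54. Among genes measured in both bones, the share at least 2-fold higher in the femur was 2.78% at a mean level below -5 and 0.08% between 2 and 4, and the share higher in the ilium 2.06% and 0.72%. Olfactory and vomeronasal receptor genes, a family picked out after its values were seen, made up 51 of the 276 (18.5%). Of 433 tested receptors, 51 (11.8%) were at least 2-fold higher in the femur, against 1.32% of all genes. In the ilium 4 were, against 2.18% of all genes. A receptor dim in 1 bone was tested only through its brighter bone, so these counts also reflect that filter. The median level of the 433 was -5.25 in femur and -5.70 in ilium. Olfr282, at -4.75 in ilium and -1.98 in femur, had the largest measured difference in this direction (-2.77), and stood at -2.40 in maxilla and -2.28 in mandible. Also among the 15 largest were Ghrl, the ghrelin gene (-5.26 and -2.58; its other probe gave -0.31), Cd300c, a receptor of myeloid cells (-5.87 and -3.58), and Npy, neuropeptide Y (-5.65 and -3.42). With normexp these 4 differences became -1.61, -1.34, -1.0 and -0.99, while Prg2 and Epx had -1.83 and -1.85. Ilium genes dim in the femur shrank as well: Ucp1 went from 7.74 to 5.23, Cnmd from 5.59 to 3.0 and Matn3 from 3.59 to 1.62. Col10a1 went from 4.57 to 2.24, Foxa2 from 3.56 to 1.59, Bpifa1 from 4.67 to 2.65 and Dspp from 2.72 to 0.95. Among genes measured in both bones, Cidea and Prg4 changed little (4.93 to 4.73 and 3.99 to 3.96), but others shrank. Snorc went from 6.73 to 5.39, Col9a1 from 4.86 to 3.43, Hapln1 from 4.16 to 2.52 and Panx3 from 4.04 to 2.57. The lowest folds given for genes at a bound, and the folds of measured genes that are dim in 1 bone, thus hold for the main background correction only.

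**Figure D3:**
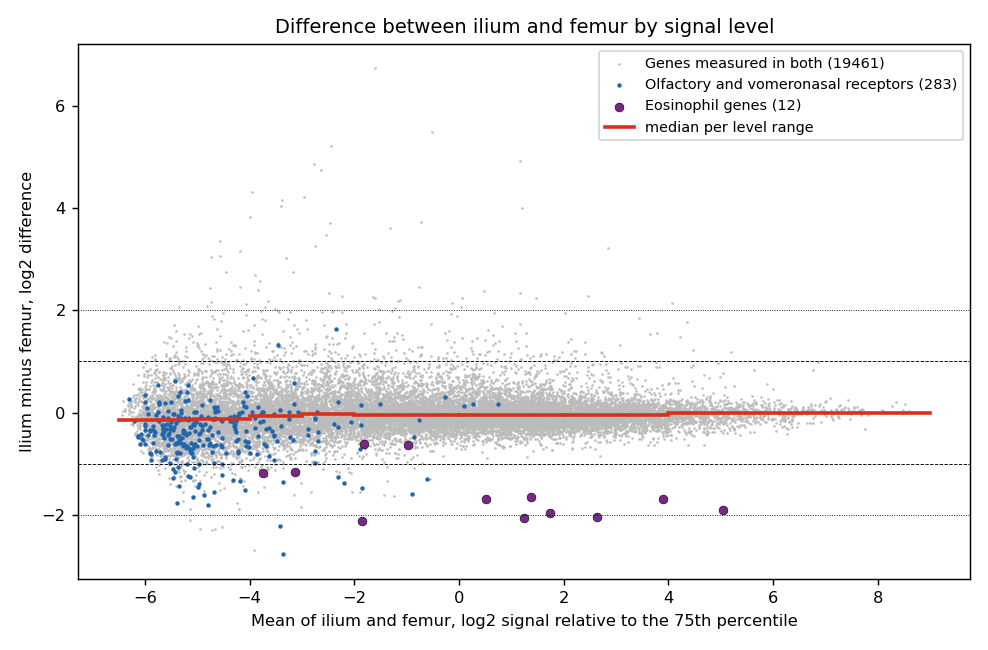
Ilium minus femur difference (y, log2) against the mean level of both bones (x, log2 signal relative to the 75th percentile) for the 19461 genes measured in both; blue points are olfactory and vomeronasal receptors, purple points eosinophil genes and red lines the median per level range. The red medians run from -0.14 below a level of -5 to -0.01 above 4, receptors crowd at the dim end, and eosinophil genes such as Prg2 (-1.91) lie low at bright levels.

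Genes of tissues next to the jaw were also seen in the ilium sample at low levels. Of 8 nasal and salivary secretory genes 6 were tested, 3 were at least 2-fold higher in ilium and 0 in femur (median 1.31), and Dcpp1 and Obp1a were not well above background in either bone. With 3 of the 6 at a bound, the median of 1.31 moved between 0.16 and 4.67 over the alternative settings. Bpifa1, an airway secretion, stood at -1.86 in ilium, 7.33 in maxilla and -3.86 in mandible and was not well above background in femur (-7.73), at least 25.5-fold higher in ilium than femur. Cyp2a5 was at least 7.14-fold and Reg3g 3.22-fold higher. The summed linear signal of the 8 genes, in units of the 75th percentile, was 0.496 in ilium, 0.0982 in femur, 541 in maxilla and 0.510 in mandible. Of 8 tooth matrix genes 4 were tested, and Dspp, of dentin (at least 6.59-fold), and Amelx, of enamel (4.52-fold, other probe -0.09), were higher in ilium and 0 in femur; Enam, Mmp20, Odam and Amtn were not well above background in either. Their sum was 0.383 in ilium, 0.191 in femur, 96.2 in maxilla and 263 in mandible. Among 11 stratified epithelium genes, 0 were 2-fold higher in the ilium and Krt1 was 2.59-fold higher in the femur. The part of these transcripts in the other differences was not tested. Examples of ilium-high genes that stood below the ilium level in both jaw bones were Matn3, Prg4, Ihh, Snorc, Col2a1 and Ctsk. Examples that stood above it in at least 1 jaw bone were Col9a2, Col9a3, Sox9, Isl1, Alx1 and Sfrp2. The source of their transcripts was not tested.

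Set against the jaw bones, the genes apart in this pair fell on different sides. Of the 456 higher in the ilium, 294 were nearer the ilium side in both jaw bones, above the midpoint of ilium and femur, 80 in neither, and the ilium was the highest of the 4 bones for 138 (30.3%). Of the 276 higher in the femur, 37 were on the femur side in both jaw bones and 140 in neither, and the femur was the highest of the 4 for 193 (69.9%). All 4 values enter with their own measurement error, and the choice of genes by the ilium and femur values makes the brighter bone high.

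**Figure D4:**
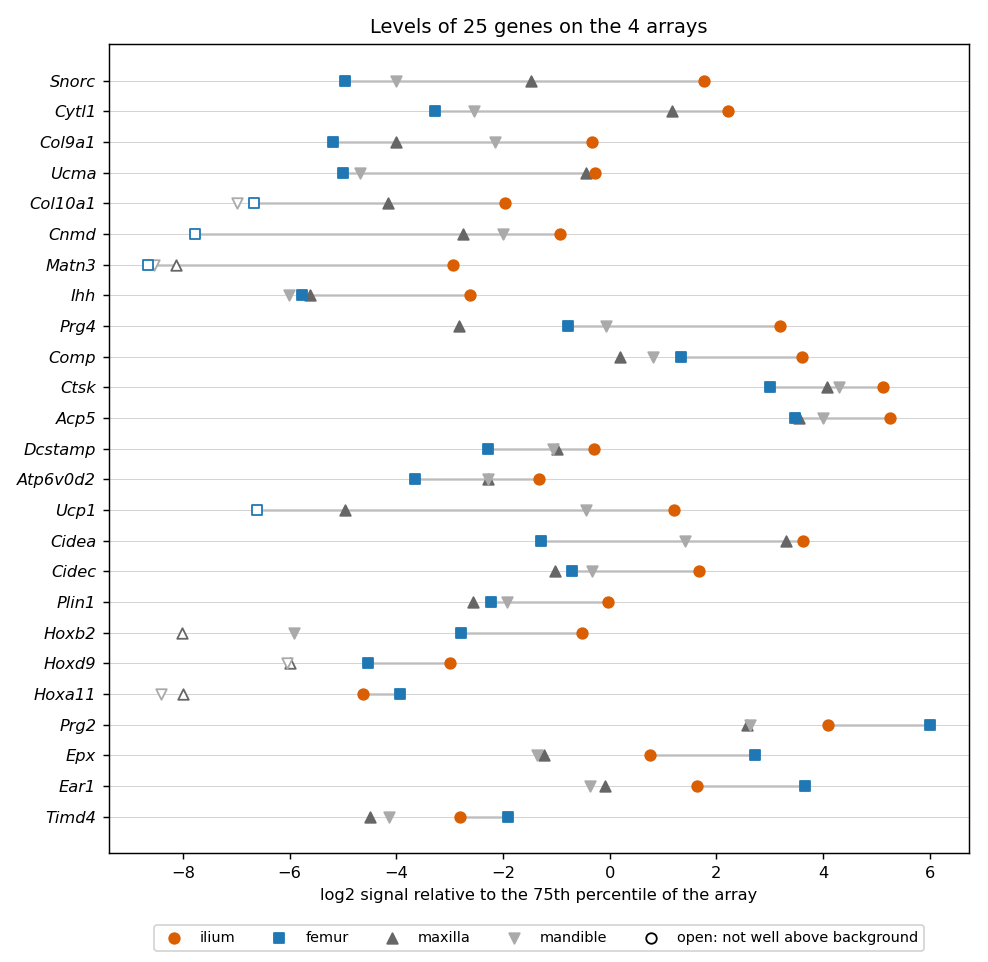
Level (x, log2 signal over the 75th percentile of each array) of 25 genes (rows) on the 4 arrays; open symbols were not well above background and grey lines join ilium and femur. For Snorc, Ihh, Prg4 and Ctsk the ilium stands to the right of the other 3 bones, for Prg2, Epx and Ear1 the femur does, and Cytl1 and Ucma have the maxilla near the ilium.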

How the data were processed

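The authors deposited scanner files with a linear intensity per spot. Agilent Feature Extraction 9.5.3.1 made them, according to the processing notes of the submitters, and subtracted background from the processed signal, per the file headers. Log2 of it minus each array's 75th percentile was taken over non-control spots. Outlier spots on any array (169) were left out and a probe's other spots averaged, which gave 41168 probes a value. Of 41174 probes, 24492 were named by accession, 6234 by current and 2386 by older symbol through a RefSeq table (GRCm38.p6), and 8056 kept the file's name. A gene took its probe with the highest mean over the 4 arrays, and a probe was well above background when most of its spots were. Probe positions are those of the files (mm8).

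No test was made. The size rules were 2-fold and 4-fold. Named genes were chosen from the 15 largest measured differences and 5 largest bounds per direction and from 44 lists (628 of 635 entries had a value), besides the genes next to the 4-fold limit, 2 lists and a receptor family picked after values were seen, and the globins. The members, lists and rules were chosen with earlier results of these data known.

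The authors' deposited series table holds log2 values; its femur column was the log2 ratio to the ilium array minus a constant of 0.096 within 0.001 for 100.0% of 41174 probes (column medians 0.0232 for femur, -0.217 for maxilla and -0.133 for mandible). How the constant was chosen is not given in the sources used here. The counting of genes past a size was tested on simulated data in which every gene was well above background in both bones. Known differences were given only to genes with a femur level above -3. Bounds and differences of dimmer genes were not tried. Tools were Python 3.11.15, statsmodels 0.14.6, and limma 3.58.1 in R 4.3.3 for normexp (offset 50). The MEF2 core was not searched.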

Additional observations from a re-analysis of the deposited data

How the results depend on the processing

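No paired analysis was possible because each bone has 1 array and no test was made. Of the counts and main list medians, 133 values under the alternatives stayed within 1.5 times the main count or close to the main median and 27 moved; of the main list medians only that of fast muscle genes crossed 0 (0.00 to -0.01, quantile). The balance of the 2-fold counts turned under 1 setting, no filter on background, with 37.5% higher in the ilium against 62.3%. Normexp background correction gave 33 and 2 genes at 4-fold and 211 and 27 at 2-fold (ilium and femur), and medians of 2.54 for cartilage collagens, 1.85 for cartilage matrix proteins, 1.02 for osteoclast, 0.60 for white and 0.44 for brown adipocyte genes. Of the main 276 genes higher in the femur, 27 (9.8%) stayed past 2-fold with it, and of the 456 higher in the ilium 206 (45.2%). Quantile normalization gave 182 genes at 2-fold in the femur and a loess on the mean level, chosen after seeing the data, 175; the brown adipocyte median was 1.34 with quantile. Requiring both bones well above background gave 54 and 11 genes at 4-fold, 158 at 2-fold in the femur and a brown adipocyte median of 0.43. No filter and no bound gave 152 and 83 genes at 4-fold, 723 and 1203 at 2-fold and a median of 2.54 for brown adipocyte genes. A level of -3 or more in the brighter bone, also chosen after seeing the data, gave 60 and 6, 267 and 45, and 2.68. The median over probes gave 1.03 for osteoclast genes. The cause of these shifts was not tested. Leaving out an array was not run, as it leaves no comparison. Signal over background limits dim genes: the scanner error of a difference was 0.20 for Ctsk and 0.31 for Acsm3, at -6.11 in femur.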

Other observations

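Some genes outside the lists differed as much as the cartilage genes. Serpina1d, of the alpha-1-antitrypsin family of near-identical copies that a probe may not keep apart, stood at 0.15 in ilium, -5.05 in femur, 3.62 in maxilla and -3.73 in mandible, 36.8-fold higher in ilium than femur. Acsm3, a mitochondrial acyl-CoA synthetase, differed by 4.32, and Meltf, the melanotransferrin that chondrocytes also express, by 4.22, at -0.86 in ilium, -5.08 in femur, -1.97 in maxilla and -4.28 in mandible.

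Lists of genes that follow the time or handling of a sample, and several other lists, had medians near 0, though single genes differed more. The 15 clock genes had a median of 0.10 and 0 at 2-fold, Nr1d1 by 0.72 and Per1 by -0.49; the median was -0.07 with the median over probes. Of 14 immediate early and stress genes Egr1 was 2.09-fold higher in the ilium and Fos differed by 0.18. The 11 hypoxia and glycolysis genes had a median of 0.01, the 12 interferon response genes -0.18, the 15 endothelial genes 0.04, the 11 marrow niche genes -0.11, the 10 nerve and Schwann cell genes 0.22, the 10 myogenic genes 0.27 and the 11 reference genes -0.06, each with 0 genes at 2-fold. Of 7 plasma cell genes Prdm1, which osteoclasts also express, was 2.21-fold higher in the ilium.

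The 5 neural markers the study chose for PCR were within 2-fold. Ngfr stood at -2.85 in ilium and -2.36 in femur, Sox10 at -3.41 and -3.18, Nes at 0.22 and -0.10, Wnt1 at -3.48 and -3.55 and Msi1 at -1.59 and -1.60.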
